A study of Canis lupus familiaris with 4 samples.

Results

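Coagulation and fibrinolysis genes were described in canine adipose tissue-derived mesenchymal stromal cells (MSCs), plastic-adherent connective tissue progenitors, grown from 4 dogs. The set was chosen by symbol, with earlier results of these data known. It lists 9 genes: F3, TFPI, TFPI2, THBD, PROS1, PLAT, PLAU, PLAUR and SERPINE2. A row with that symbol was found for 8 of the 9, among 30951 genes in the table, and PLAT was not analysed here. Total RNA was sequenced after ribosomal RNA depletion, with 1 library for each of 4 untreated primary cell lines kept for 48 h in 24-well plates in DMEM with 10% fetal bovine serum. All 4 belong to 1 group, and the labels give no second condition, breed, age, sex or passage. Each dog is represented by 1 culture, so differences between dogs, cultures and libraries cannot be told apart.

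Clotting starts when tissue factor, encoded by F3, meets factor VII from plasma, and it ends in thrombin, which turns fibrinogen into fibrin. TFPI inhibits the tissue factor complex, thrombomodulin (THBD) turns thrombin towards activation of protein C, and protein S (PROS1) is a cofactor of both activated protein C and TFPI. Fibrin is cleared by plasmin, which the activators urokinase (PLAU) and tissue plasminogen activator (PLAT) release from plasminogen, and serpins such as protease nexin-1 (SERPINE2) hold these activators in check. Cultured stromal cells are known for tissue factor on their surface, a property of interest when such cells are given intravenously.

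Libraries held between 7474011 (dog 4) and 22411268 (dog 1) reads assigned to genes, and 17200 genes were detected, meaning that they had reads in 2 or more of the 4 libraries. The level of a gene is its deposited log2 value minus that of the median detected gene of the same library. It is not corrected for gene length, so the length of a gene enters every call above or below the median gene. For the same reason the level gives no order between the 8 genes. Normalized reads are reads divided by the library's size factor and compare 1 gene between dogs. Dog 4 was the library with the most genes standing apart, at 3.56% of the 13834 genes with reads in every dog, against 0.520% to 0.983% for the others. Of the mesenchymal stromal markers fixed for the check, 11 of 11 were called above the median detected gene. None of the measured endothelial, platelet, myeloid, epithelial and mesothelial, hepatocyte or adipocyte markers was called above it over the 4 dogs. In single dogs, however, KRT18 reached a level of 2.60 (dog 4), APOB 1.15 (dog 4) and WT1 1.00 (dog 3). The listed markers ADIPOQ, FABP4, CD14, TYROBP, PF4, GP9, GP1BA, ALB, KRT8, KRT19 and MSLN had no row under their symbols, so they were not checked.

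All 8 genes were detected in every dog, with 112 to 19821 reads per library. Of these, 6 were called above the median detected gene, namely F3, TFPI2, PROS1, PLAU, PLAUR and SERPINE2, where 33.3% of all 17200 tested genes were above (limma, tested against a distance of 1 log2 unit, Benjamini-Hochberg adjusted p under 0.05). The other two, TFPI and THBD, were neither above nor below. None was called below, against 35.8% of all tested genes. The median level over the 8 genes was 3.61, beside -0.02 over all detected genes. The 6 calls held when any 1 dog was left out.

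**Figure D1:**
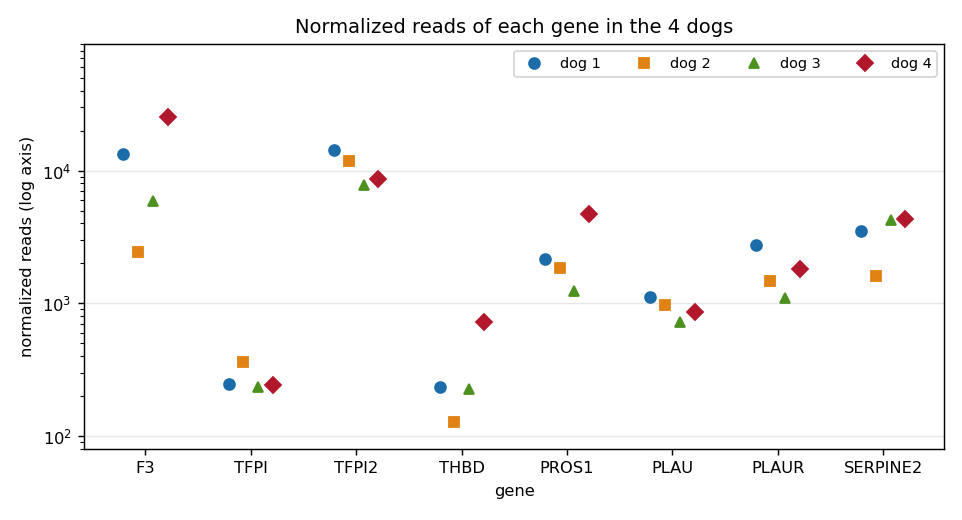
Normalized reads (log axis) of the 8 genes in the 4 dogs, 1 point per culture. F3 spans 2426 to 25178 normalized reads, whereas the points of PLAU lie between 726 and 1116; heights of different genes are not corrected for gene length.

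**Figure D2:**
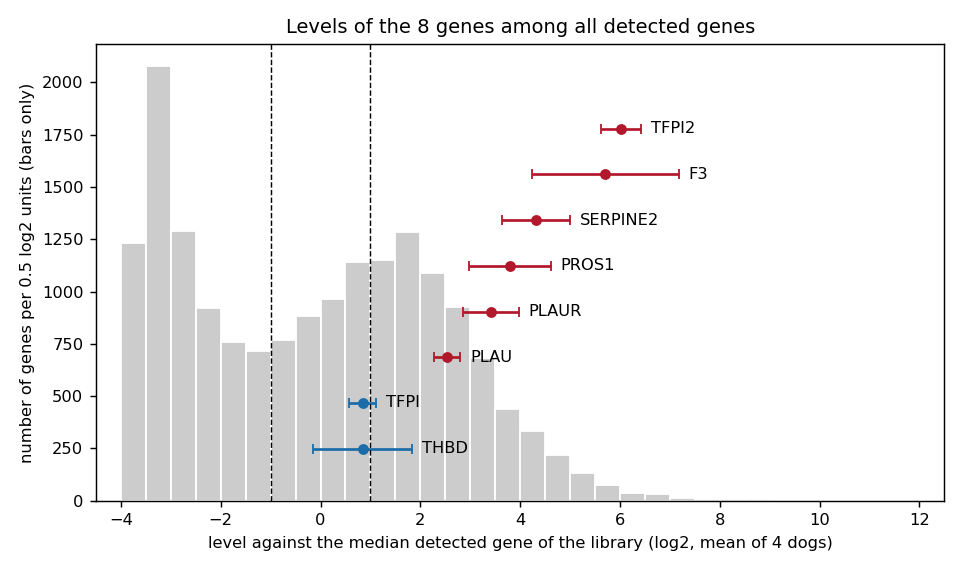
Mean level of each gene over 4 dogs (points, with bars of 1 SD between dogs) over a histogram of the mean levels of all 17200 detected genes. Dashed lines mark the tested distance of 1 log2 unit on either side of the median, red points were called above it, and the height of a point has no meaning; TFPI and THBD are the 2 blue points that did not pass.

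F3 encodes tissue factor, the transmembrane receptor that starts the extrinsic pathway of clotting. It had 13260, 2426, 5904 and 25178 normalized reads in dogs 1 to 4. Dog 4 was highest and dog 2 lowest, and no neighbouring dogs lay close together. The level of F3 was 5.71 ± 1.47 (log2, mean ± SD, n = 4 dogs; later levels are given likewise) and was called above in the test across all genes (limma, adjusted p = 3.75e-06, above in 4 of 4 dogs). Dog 4 exceeded dog 2 by 10.4-fold, with a 95% interval of 9.95 to 10.8 (exact binomial, counting error only). Even in dog 2 the count was 2629 reads, so counting error was about 1.95% there.

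The spread of F3 between dogs was wide for a gene of its level. Of the 168 detected genes within 0.5 log2 units of its level, 98.8% had a smaller SD, and their median SD was 0.29. Against the trend of variance with level, its variance was 25.6 times the prior value, but it did not pass the F test (limma prior, adjusted p = 0.218). The SD was 1.06 without dog 2 and 1.23 without dog 4.

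The summed level of the 8 smooth muscle and pericyte markers moved in part with F3. It was 70836, 50641, 36169 and 132940 normalized reads in dogs 1 to 4, again highest in dog 4, but lowest in dog 3. ACTA2 and TAGLN made up most of it. Of these markers 6 of 8 were called above the median detected gene and RGS5 had 0 reads. The 6 measured epithelial and mesothelial markers summed to 129, 104, 332 and 943. KRT18 alone made up 943 of the last value, and CDH1 had 0 reads in all dogs. WT1 made up 106, 84, 303 and 0 of the sums in dogs 1 to 4. The part of these genes in the F3 result was not tested. In bulk RNA a change in the number of cells of a type cannot be told apart from a change in RNA per cell.

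The genes with profiles nearest to that of F3 were CEMIP, HTR2A and CDK3. Likeness was the root mean square difference of the dog-centred log2 values, over 4 dogs and 11436 named genes with reads in every dog. It was 0.30 for CEMIP, which encodes a protein needed for hyaluronan breakdown, 0.31 for the serotonin receptor gene HTR2A and 0.34 for the kinase gene CDK3. CEMIP had 9655, 1581, 6757 and 20470 normalized reads in dogs 1 to 4, again with dog 2 lowest and dog 4 highest. HTR2A had 44.5, 2.77, 7.64 and 91.1, so its likeness rested on few reads in dogs 2 and 3. With 4 points this is a description only.

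TFPI, the Kunitz-type inhibitor of the tissue factor and factor VII complex, stood at 0.85 ± 0.27 and was neither above nor below (limma, adjusted p = 0.997, above 0 in 4 of 4 dogs). Its normalized reads were 247, 364, 235 and 243 in dogs 1 to 4. Dogs 1, 3 and 4 lay together and dog 2 lay above them. Dog 2 was 1.55-fold above dog 3 (95% exact binomial interval 1.32 to 1.82). The SD was 0.041 without dog 2, so that dog set nearly all of the spread. Against a distance of 0.5 in place of 1, TFPI was called above (adjusted p = 0.0312, limma).

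TFPI2, a related Kunitz-type inhibitor that acts on plasmin and other serine proteases and is deposited in matrix, stood at 6.02 ± 0.40 (limma, adjusted p = 4.77e-09, above in 4 of 4 dogs). Its normalized reads were 14238, 11830, 7806 and 8694. Dogs 1 and 2 were above dogs 3 and 4, and dog 1 exceeded dog 3 by 1.82-fold (95% exact binomial interval 1.78 to 1.87). Its SD was larger than that of 72.0% of the 107 genes of like level.

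THBD encodes thrombomodulin, the thrombin receptor that serves as cofactor in protein C activation. It had 233, 126, 227 and 720 normalized reads in dogs 1 to 4. Dog 4 lay far above the other dogs, dogs 1 and 3 were close together, and dog 2 was lowest. The level was 0.84 ± 0.99 and was neither above nor below (limma, adjusted p = 0.853, above 0 in 3 of 4 dogs), and over dogs 1 to 3 against the same reference genes it was 0.38, with an SD of 0.45. Dog 4 exceeded dog 2 by 5.70-fold (95% exact binomial interval 4.65 to 7.0). Of the 2270 genes of like level, 97.2% had a smaller SD. Thrombomodulin is well known from endothelium, and of the 11 endothelial markers none was above the median detected gene, 5 were below and 3 (PECAM1, TIE1 and EMCN) had 0 reads in every dog. CDH5, the endothelial cadherin, had 5, 2, 5 and 1 reads. The endothelial markers summed to 170, 203, 129 and 284 normalized reads in dogs 1 to 4. Dog 4 was highest in this sum, as for THBD, but dog 3 and not dog 2 was lowest. The single markers were divided. ERG, ESAM, KDR and CLDN5 were highest in dog 4, although KDR varied little (60.0 to 73.7), whereas CDH5, TEK, EGFL7 and ROBO4 peaked in other dogs. VWF, an endothelial gene outside this marker list, ran the other way, with its lowest value in dog 4 (26.0) and its highest in dog 1 (273). The part of these markers and of VWF in the THBD values was not tested.

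PROS1, the gene of the vitamin K-dependent protein S, stood at 3.80 ± 0.82 (limma, adjusted p = 3.28e-06, above in 4 of 4 dogs). Its normalized reads were 2161, 1853, 1233 and 4747. Dog 4 was again highest and dog 3 was lowest, 3.85-fold apart (95% exact binomial interval 3.59 to 4.13). Its SD exceeded that of 97.3% of 893 genes of like level, and it was 0.42 without dog 4. The order of the dogs for PROS1, from dog 3 through dogs 2 and 1 up to dog 4, was the most common order. It was held by 7.92% of the genes with reads in every dog. The dogs ranked likewise for the summed smooth muscle and pericyte markers, whose part in the PROS1 values was not tested. ACTA2 and TAGLN made up 79.1% to 87.3% of that sum and MYH11 and CNN1 put the dogs in the same order, whereas NOTCH3 and CSPG4 did not, and DES had at most 4 reads.

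PLAU encodes urokinase, the plasminogen activator of tissue remodelling and cell migration. It had 1116, 965, 726 and 865 normalized reads and a level of 2.54 ± 0.26 (limma, adjusted p = 1.93e-06, above in 4 of 4 dogs). The dogs lay close together, with dog 1 exceeding dog 3 by 1.54-fold (95% exact binomial interval 1.41 to 1.68). The SD was near that of genes of like level, whose median was 0.23. In the dog RefSeq annotation of assembly UU_Cfam_GSD_1.0, a long noncoding RNA gene overlaps PLAU. Whether the authors' count used strand is not given in the sources used here, and reads of that overlap cannot be told apart.

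PLAUR encodes the urokinase receptor, a lipid-anchored protein that holds PLAU at the cell surface. Its normalized reads were 2733, 1464, 1095 and 1824 in dogs 1 to 4, for a level of 3.41 ± 0.56 (limma, adjusted p = 1.24e-06, above in 4 of 4 dogs). Dog 1 was highest and dog 3 lowest, as for PLAU, with a wider gap of 2.5-fold (95% exact binomial interval 2.34 to 2.67). Its SD exceeded that of 92.9% of 1190 genes of like level, and without dog 1 it was 0.37.

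SERPINE2 encodes protease nexin-1, a serpin that inhibits thrombin, urokinase and tissue plasminogen activator. It had 3482, 1594, 4226 and 4311 normalized reads and a level of 4.32 ± 0.68 (limma, adjusted p = 3.45e-07, above in 4 of 4 dogs). Dogs 1, 3 and 4 lay together and dog 2 lay below them, 2.7-fold under dog 4 (95% exact binomial interval 2.53 to 2.89). Of the 609 genes of like level, 94.4% had a smaller SD, and the SD of SERPINE2 was 0.17 without dog 2.

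Spread between dogs was the second quantity that the design allowed to be tested. No gene passed the F test against the trend (0 of 17200, 0%, smallest adjusted p = 0.0796, limma prior). At an unadjusted p under 0.05, 895 genes (5.2%) exceeded the trend, and 5 of the 8 coagulation and fibrinolysis genes were among them, namely F3, THBD, PROS1, PLAUR and SERPINE2. Without dog 4 the count was 3 of 8 (F3, PLAUR and SERPINE2), beside 4.71% of all genes. With an untrended prior it was 2, beside 3.74%, and with all genes of the table in the fit 0, beside 9.75%. The median SD of the 8 genes was 0.62, beside 0.36 over all detected genes, many of which lie at lower levels. Among genes of like level, the median SD ran from 0.23 (for PLAUR) to 0.31 (for TFPI2).

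**Figure D3:**
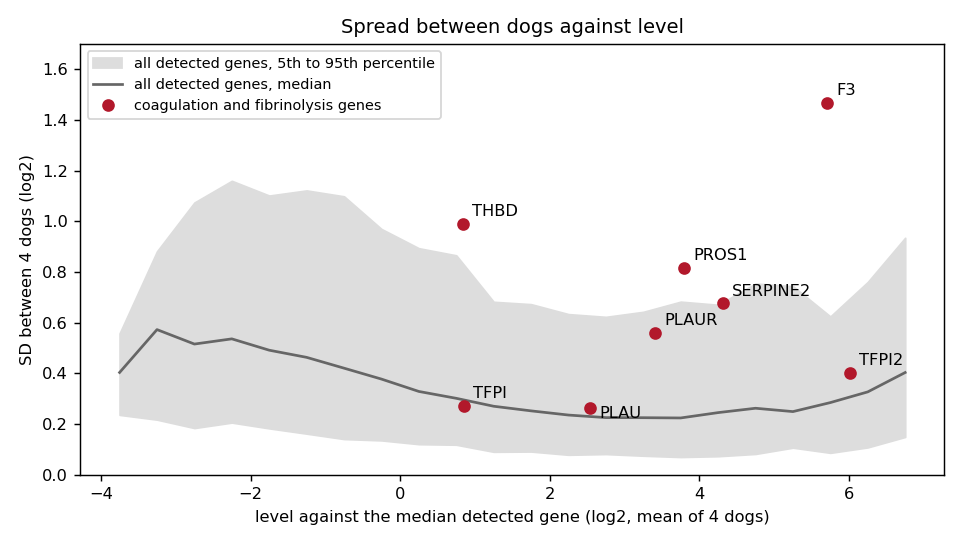
SD between the 4 dogs (log2) against mean level for the 8 genes (red points), over the median (line) and the 5th to 95th percentile (band) of all detected genes in level bins of 0.5. F3, with an SD of 1.47, and THBD and PROS1 lie above the band, whereas TFPI, TFPI2, PLAU and PLAUR lie inside it. SERPINE2, with an SD of 0.68, lies at its upper edge.

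The dogs ranked differently for different genes. F3, THBD and SERPINE2 were highest in dog 4 and lowest in dog 2, a pair of extremes held by 10.0% of the 13834 genes with reads in every dog. TFPI2, PLAU and PLAUR were highest in dog 1 and lowest in dog 3, which held for 7.76% of those genes. PROS1 was highest in dog 4 and lowest in dog 3, and TFPI was highest in dog 2 and lowest in dog 3. Dog 4 was thus the highest for 4 of 8 genes, and for 35.5% of all genes with reads in every dog. After quantile normalization the highest dog of TFPI2 became dog 2 (6.36, against 6.35 in dog 1) and that of SERPINE2 dog 3 (4.80, against 4.69 in dog 4). After thinning every library to the read total of the shallowest, the lowest dog of TFPI became dog 1.

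**Figure D4:**
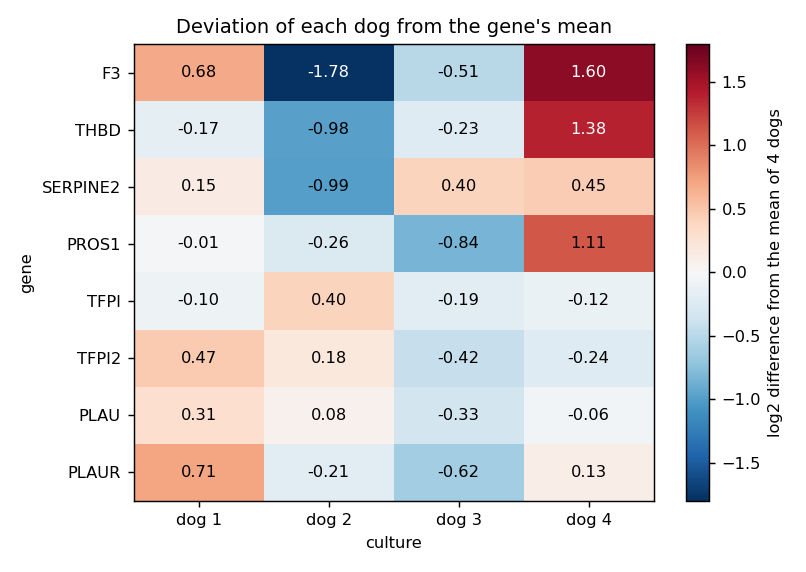
Deviation of each dog from the gene's mean level over 4 dogs (log2, colour and printed value). F3 runs from -1.78 in dog 2 to 1.60 in dog 4, and TFPI2, PLAU and PLAUR share their highest value in dog 1 and their lowest in dog 3.

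Gene length and library depth cancel when the read ratio of a pair is compared between dogs. The ratio of F3 to TFPI reads was 53.7, 6.67, 25.1 and 104 in dogs 1 to 4. This RNA ratio of the initiator to its inhibitor thus differed 15.5-fold between dogs 4 and 2, beside 10.4-fold for F3 alone. Protein was not measured. On the log2 scale the range of the ratio was 3.96, and 2.04 without dog 2. SERPINE2 reads per PLAU read numbered 3.12, 1.65, 5.83 and 4.98, a 3.53-fold range with dog 2 lowest, and the log2 range of 1.82 was 0.90 without that dog. PLAU reads per PLAUR read varied less, at 0.408, 0.659, 0.663 and 0.474, a 1.62-fold range. For TFPI2 to TFPI the range was 1.77-fold, and on the log2 scale it was 0.82, or 0.14 without dog 1. For PROS1 to THBD it was 2.7-fold (log2 1.43, and 0.77 without dog 2).

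The rest of the pathway was given by 5 lists of 48 genes, of which 42 were measured. The level test placed 9 of them above and 12 below, 8 did not pass and 13 were not detected. Of the 29 tested, 31.0% were thus above and 41.4% below, near the 33.3% and 35.8% of all tested genes.

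Among 15 measured clotting factor genes, 0 were called above and 3 below, 5 did not pass, and the other 7 were not detected. The fibrinogen chains FGA, FGB and FGG, the factor IX gene F9, the factor XIII chain F13A1 and the kininogen gene KNG1 had 0 reads in all 4 dogs. Over the 61335851 reads of the 4 libraries, 0 reads allow up to 0.0489 reads per 1000000 (3 reads, counting error only). F5, the gene of the prothrombinase cofactor factor V, stood at -0.07 ± 0.49, with 190, 132, 89 and 99 reads, and the contact factor gene F12 at -0.33 ± 0.40. Prothrombin (F2, -3.25 ± 0.53) and factor VIII (F8, -3.45 ± 0.43) were called below. VWF, the platelet-binding factor of endothelial cells, had 380, 62, 214 and 12 reads and a level of -0.39 ± 1.29, which did not pass. The transglutaminase gene TGM2, whose enzyme cross-links matrix and fibrin, stood at -0.84 ± 1.44 and was high in dog 4 alone (1.29, against -1.16, -1.66 and -1.81). Over dogs 1 to 3 against the same reference genes, TGM2 was called below at -1.55 (limma, adjusted p = 0.0359), and 4 genes of this list were below in place of 3. When the detected genes were also redrawn from those dogs, TGM2 stood at -1.78 and 5 were below.

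Among 7 other measured anticoagulant genes, ANXA5 was called above and 3 below, GAS6 did not pass, and 2 were not detected. ANXA5, whose product shields phosphatidylserine surfaces from clotting factors, stood at 5.61 ± 0.21. GAS6, a vitamin K-dependent relative of protein S, stood at 0.66 ± 0.33. The endothelial protein C receptor PROCR (-1.75 ± 0.52), heparin cofactor II (SERPIND1, -2.16 ± 0.81) and antithrombin (SERPINC1, -3.71 ± 0.29, with 2 reads in dog 1 and 1 in dog 3) were below. Against a distance of 2, SERPINC1 kept its call and SERPIND1 lost it. PROCR could not be called at that distance, since its mean lies within it. Without the filter on low values, PROCR lost its call (adjusted p = 0.0547, limma). Protein C itself (PROC) had 8 reads in dog 2 and none in the other dogs.

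Plasminogen (PLG) had 0 reads in every dog, as had SERPINB2, CPB2 and HRG. Of the 11 measured genes of the plasminogen system that were listed beside the set, the same 4 were not detected, 3 were called above, 3 below, and PLGRKT (-0.73 ± 0.35) did not pass. The endocytic receptor LRP1, which clears complexes of activator and inhibitor, stood at 9.47 ± 0.17. The plasminogen-binding surface proteins ANXA2 (6.92 ± 0.29) and ENO1 (6.39 ± 0.44) were the other two above. Antiplasmin (SERPINF2, -2.94 ± 0.52) and neuroserpin (SERPINI1, -3.18 ± 0.96) were below. With the median of the genes read in every dog as reference, PLGRKT was called below too (-1.56, adjusted p = 0.0227, limma).

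Of the 4 protease-activated receptors, through which thrombin and related proteases signal to cells, F2R was above and 3 were below. F2R, the main thrombin receptor of many cells, had 442, 511, 986 and 779 normalized reads and stood at 2.06 ± 0.51 (limma, adjusted p = 0.000236, above in 4 of 4 dogs). With the median of the 13834 genes read in every dog as reference it lost its call (1.24, adjusted p = 0.165, limma). F2RL2 (-2.30 ± 1.15), F2RL1 (-3.31 ± 0.65) and F2RL3 (-3.68 ± 0.35) were below, and F2RL2 had 92 of its 111 reads in dog 3. Against a distance of 2, F2R (adjusted p = 0.695, limma) and F2RL2 (adjusted p = 0.452, limma) lost their calls.

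Of 5 genes for the carboxylation and export of clotting factors, 4 were above and VKORC1L1 (0.95 ± 0.42) did not pass. The vitamin K-dependent carboxylase GGCX, which modifies protein S among others, stood at 4.22 ± 0.20. The cargo receptor LMAN1, which carries factors V and VIII out of the endoplasmic reticulum, stood at 3.70 ± 0.39 and its partner MCFD2 at 1.69 ± 0.49. The vitamin K epoxide reductase VKORC1 stood at 3.08 ± 0.36. MCFD2 lost its call against the median of the 13834 genes read in every dog (0.87, adjusted p = 0.969, limma). At a distance of 2 it could not be called, since its mean lies within that distance. The call was also lost without dog 1 (1.23) or dog 4 (1.40), but not when the detected genes of all 4 dogs were kept as reference (1.49 and 1.64).

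**Figure D5:**
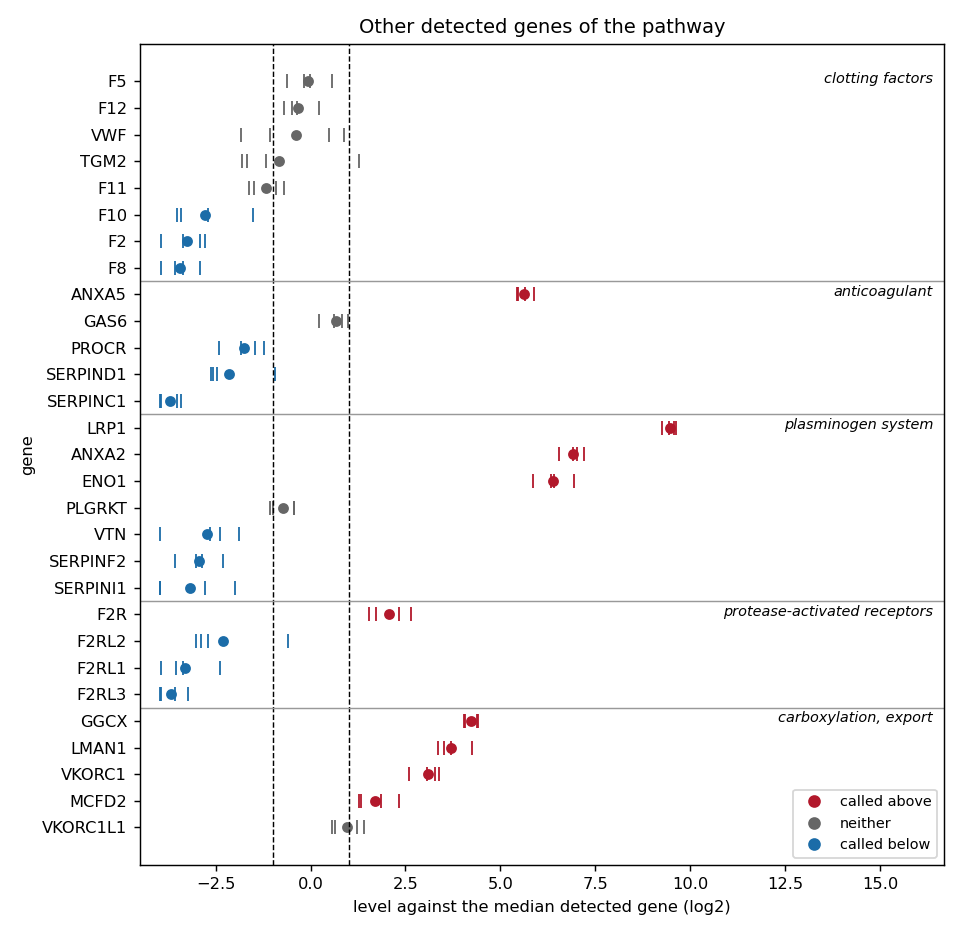
Levels (log2 against the median detected gene) of the 29 detected genes of the 5 pathway lists, with the mean of 4 dogs as a dot and each dog as a tick. Dashed lines mark the tested distance of 1; LRP1 and ANXA2 stand at 9.47 and 6.92, and no clotting factor gene was called above.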

How the data were processed

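Libraries were made with a stranded total RNA kit from 10 ng of RNA, per the labels' protocols. The submitters' processing notes name the build CanFam3.1 and the tools FastQC 0.12.1, Trimmomatic 0.39, STAR 2.7.11a and DESeq2. No counter or annotation release is given in the sources used here. Values in the deposited table are log2 values, made by the authors with a variance-stabilizing transformation, per the file headers. Columns were matched to dogs by number. One gene of the pathway lists is not reported here.

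The transformation was inverted from its lowest value, 3.37, the value of 0 reads. All non-lowest values came out as whole reads within 0.01, and size factors were 1.39, 1.08, 1.05 and 0.461 for dogs 1 to 4. Tests ran on the log2 values in limma 3.58.1 (R 4.3.3), as an intercept-only fit with a trended prior against a distance of 1, with Benjamini-Hochberg adjustment over 17200 genes and a threshold of 0.05. A gene's variance was tested against the trended prior by an F test. Both were run on simulated data, in which the genes not made variable shared a common spread, unlike the detected genes here. How either test behaves at the mixed spreads of these data was therefore not tested. The variable genes there were given a wider spread than any of the 8 genes had, so detection at smaller spreads was not tested. Leaving out a dog redrew the detected genes and their median; keeping those of all 4 dogs was added after seeing the data. The library names give each replicate its own dog. Marker lists covered stromal, endothelial, platelet, myeloid, epithelial and mesothelial, hepatocyte, smooth muscle and pericyte, and adipocyte genes. The coagulation and fibrinolysis genes and all lists were chosen with earlier results of these data known. Named genes were all 8 genes, up to the 4 highest and 2 lowest detected genes per pathway list, and the 3 genes nearest in profile to any of the 8 with an SD above 1. Genes listed at 0 in all dogs, PROC and the single marker genes were named after their values were seen.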

Additional observations from a re-analysis of the deposited data

Results flagged for a closer look

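In 3 of 34 named genes of the set and its pathway, 1 dog lay far from the other dogs: its gap to the nearest one, divided by the range, exceeded Dixon's 95% critical value for 4 samples. That is 8.82% of them, beside 5.99% of the 13834 genes with reads in every dog, and chance alone does this in about 1 in 20 genes. The shares differ in filter, since some of the 34 genes lacked reads in a dog, such as F2 and F8 with 0 reads in dog 4. For TFPI, dog 2 stood apart (ratio 0.845), at a level of 1.25 against 0.66 to 0.75 in the other dogs. For heparin cofactor II (SERPIND1), dog 4 stood apart (0.910), with 29 reads against 14, 13 and 10 in the deeper libraries of dogs 1 to 3. For the receptor gene F2RL2, dog 3 stood apart (0.872), with 92 reads against 8, 9 and 2.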

How the results depend on the processing

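No paired analysis was possible because there is 1 group. The counts of coagulation and fibrinolysis genes above and below the median detected gene stayed within 1.5 times the main count under every alternative run, from 6 to 8 above and 0 below; TFPI and THBD were both called above with the median over all genes of the table as reference. Over all genes, 5723 were above, and 3729, 11406 or 3289 with the median over genes with reads in all dogs, over all genes of the table, or a distance of 2. The count below was 6163, and 0 with the median over all genes, 2830 among the 13834 genes read in every dog and 19520 without a filter. With that reference F5 (3.33), F12 (3.06), VWF (3.01), TGM2 (2.56), F2 (0.15), PROCR (1.65), SERPIND1 (1.24), SERPINF2 (0.46), SERPINI1 (0.22), PLGRKT (2.66), F2RL2 (1.09) and F2RL1 (0.089) changed sign, because the median over all genes lies near the value of 0 reads. The variability test called 0 genes, but 2 after thinning to the shallowest library (SORCS1 and COL6A3, named after their values were seen) and 0 to 1 when 1 dog was left out, the 1 being a gene without a symbol. With the detected genes of all 4 dogs kept, an alternative chosen after seeing the data, leaving out 1 dog gave 0 to 15, with 15 without dog 4 and 4 without dog 2, none of them among the 8 genes; PROCR then lost its call without dog 2 (-1.52). The cause was not tested. The comparison of gene pairs per length was not run, since no transcript lengths were used here. Depth limits the lowest counts: TFPI had 112 reads in dog 4, a counting error of about 9.45%.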
